A study of Mus musculus with 17 samples.

Results

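A set of 9 genes that mark megakaryocytes and platelets was followed through bone marrow of mice with acute myeloid leukaemia (AML): Pf4, Ppbp, Itga2b, Itgb3, Gp9, Gp1ba, Gp1bb, Gp6 and Vwf. They were chosen by symbol, as 9 of the 56305 gene rows in the counts of 17 RNA libraries and of the 6 summed samples made from those libraries. All 9 have a row, 7 had at least 1 count, and 6 had a mean of at least 1 CPM (counts scaled to a common library size). Gp9 and Gp1bb had 0 counts in all 17 libraries, and Gp6 had 13 counts, all in 1 library. None of the 6 genes that could be tested differed between Mt1ko and control samples beyond the spread of the samples by the test described below, which called 0.00% of all 16666 genes tested.

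Megakaryocytes are large marrow cells that mature from stem and progenitor cells under thrombopoietin and the transcription factors GATA1, FLI1, RUNX1 and NF-E2, and then shed platelets into the blood. Platelets carry the granule chemokines PF4 (CXCL4) and PPBP (the precursor of CXCL7), the fibrinogen receptor made of ITGA2B and ITGB3, the GPIb-IX-V receptor for von Willebrand factor (GP1BA, GP1BB, GP9 and GP5), and the collagen receptor GP6. Several of these genes are not exclusive to the lineage: Itga2b, whose product is CD41, is also active in early progenitors and mast cells, Vwf is active in endothelial cells, and Pf4 in some macrophages.

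The study asked how transcription differs when metallothionein 1 (Mt1), a zinc- and copper-binding protein, is knocked down with CRISPR-Cas9 in this leukaemia. The Mt1ko group held 9 libraries, which the authors summed as 4-6, 10-12 and 16-18. The control group held 8 libraries, summed as 1-3, 7-9 and 14-15. Both groups were labelled as bone marrow of C57BL/6 mice with the genotype Dnmt3aR878H/+;Npm1cA/+, that is, a heterozygous Dnmt3a point mutation and a heterozygous allele of Npm1 whose product stays in the cytoplasm. The labels give no age, guide sequence or sort. They call every library a technical replicate and do not say whether the 6 sums stand for different animals. The p-values below therefore rest on how far these sums vary, and that variation may be technical. In bulk RNA, fewer cells of a type and less RNA per cell cannot be told apart.

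Single libraries held 27124722 to 38645072 counts in total and their sums 64247249 to 106407001. Mt1 averaged 107 ± 56.8 CPM in Mt1ko samples and 384 ± 49.1 CPM in control samples (SD, n = 3 each). Among single libraries, Mt1 was 49.2 to 95.7 CPM in 8 of those labelled Mt1ko and 316.7 CPM in the library labelled Mt1ko with number 6, against 332 to 448 CPM in the 8 control libraries. Libraries 10 to 12, which form 1 Mt1ko sample, stood apart from all others. The share of mitochondrial ribosomal RNA was 21.9% to 30.2% there and 4.58% to 11.2% in the other 14 libraries, and 11548 to 13174 genes had a count in them, against 14823 to 17739. The fold changes of the members are therefore also given without this sample. All CPM values below are scaled by TMM, a normalization that sets the samples' typical genes equal.

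The stretches around the start sites of 4 members are printed because these 4 genes ran in opposite directions across the 17 libraries. Pf4 and Ppbp varied together, and Itga2b and Gp1ba together. Without libraries 10 to 12, Gp1ba ran only weakly against Pf4 (Pearson correlation -0.33) and Ppbp (-0.19). Each stretch runs 5′ to 3′ from 250 bases before to 50 bases after the RefSeq start, in the build GRCm38.p6. Capitals mark every match, on either strand, to AGATAA or TGATAA, 2 forms of the site bound by GATA factors, and to AGGAAG, a form of the site bound by ETS factors such as FLI1. No match overlapped another.
Pf4, chr5:90772185-90772484, plus strand: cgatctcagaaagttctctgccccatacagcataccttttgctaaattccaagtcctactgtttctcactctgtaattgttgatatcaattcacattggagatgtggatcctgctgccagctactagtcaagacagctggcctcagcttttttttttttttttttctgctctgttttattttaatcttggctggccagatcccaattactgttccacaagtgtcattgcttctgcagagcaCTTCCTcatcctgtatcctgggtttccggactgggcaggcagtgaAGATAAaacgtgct
Ppbp, chr5:90768268-90768567, plus strand: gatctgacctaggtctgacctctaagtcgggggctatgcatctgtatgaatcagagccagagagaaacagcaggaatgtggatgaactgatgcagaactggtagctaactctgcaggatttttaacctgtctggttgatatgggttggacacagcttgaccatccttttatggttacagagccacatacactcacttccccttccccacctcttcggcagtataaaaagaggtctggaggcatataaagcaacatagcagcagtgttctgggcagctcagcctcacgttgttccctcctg
Itga2b, chr11:102469834-102470133, minus strand: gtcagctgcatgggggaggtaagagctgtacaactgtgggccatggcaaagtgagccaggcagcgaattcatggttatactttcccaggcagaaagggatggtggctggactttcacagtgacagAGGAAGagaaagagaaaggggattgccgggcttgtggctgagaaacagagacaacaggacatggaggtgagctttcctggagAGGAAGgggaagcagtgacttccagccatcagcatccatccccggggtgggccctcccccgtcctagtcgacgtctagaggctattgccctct
Gp1ba, chr11:70638872-70639171, plus strand: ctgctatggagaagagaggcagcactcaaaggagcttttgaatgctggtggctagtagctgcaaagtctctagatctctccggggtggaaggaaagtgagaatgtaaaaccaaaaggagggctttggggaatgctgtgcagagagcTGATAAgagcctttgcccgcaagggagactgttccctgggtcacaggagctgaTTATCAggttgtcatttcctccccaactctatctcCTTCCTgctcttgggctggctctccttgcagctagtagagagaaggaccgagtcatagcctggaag
The Pf4 window held 1 AGGAAG match, on the reverse strand, whose first base lay 9 bases before the start, and 1 AGATAA match at bases 37 to 42, counting the start as 1. The Ppbp window held none of these letters. The Itga2b window held 2 AGGAAG matches, the nearer of them beginning 43 bases before the start, and the Gp1ba window held 2 TGATAA matches, beginning 104 and 51 bases before it, and 1 AGGAAG match beginning 16 bases before it. Of the 7 members for which a window was held, Pf4, Gp1ba and Gp6 had a GATA match, which 18.6% of all 32851 windows of the same length also had. Pf4, Itga2b, Gp9, Gp1ba and Gp1bb had an AGGAAG match, which 35.4% of all windows had, and 6.65% of all windows had both kinds. A match is a run of letters and does not show that a factor binds there.

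Of the granule chemokines, Pf4 was the most abundant member. The gene lies at chr5:90772435-90773383 (plus strand, 3 exons, GENCODE vM21 on GRCm38). It was at 159.95, 31.5 and 213.7 CPM in the Mt1ko samples 4-6, 10-12 and 16-18, against 153, 47.1 and 113 CPM in the control samples 1-3, 7-9 and 14-15. Sample 10-12 was the lowest of the 6 and sample 16-18 the highest, both labelled Mt1ko, so the Mt1ko range enclosed the control range. Over single libraries, Pf4 was 14.7 CPM at the lowest, 159 at the median and 232.66 at the highest in 9 Mt1ko libraries, against 27.97, 112 and 159 CPM in 8 control libraries. The mean was 135 ± 93.6 CPM in Mt1ko samples and 104 ± 53.4 CPM in control samples (SD, n = 3 each). The log2 fold change of 0.37 had a standard error of 0.66 and a 95% interval of -1.15 to 1.90 in edgeR's quasi-likelihood test (adjusted p = 1).

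Ppbp, the neighbour of Pf4 at chr5:90768518-90770063 on the same strand, followed the same order of samples at a lower level. It was at 17.8, 0 and 21.2 CPM in the Mt1ko samples 4-6, 10-12 and 16-18, against 13.7, 3.59 and 8.87 CPM in the control samples 1-3, 7-9 and 14-15. Libraries 10, 11 and 12 each had 0 Ppbp counts, and 3 counts in their sum would have been 0.0377 CPM. The other 14 libraries all had Ppbp, between 1.23 CPM in control library 8 and 25.2 CPM in Mt1ko library 18. The median library was at 15.4 CPM in the Mt1ko group and 8.39 CPM in the control group. Sample 10-12 lay below all 3 control samples and the other 2 Mt1ko samples lay above them. The log2 fold change was 0.58 with a standard error of 1.47 (95% interval -2.83 to 3.98, edgeR adjusted p = 1).

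**Figure D1:**
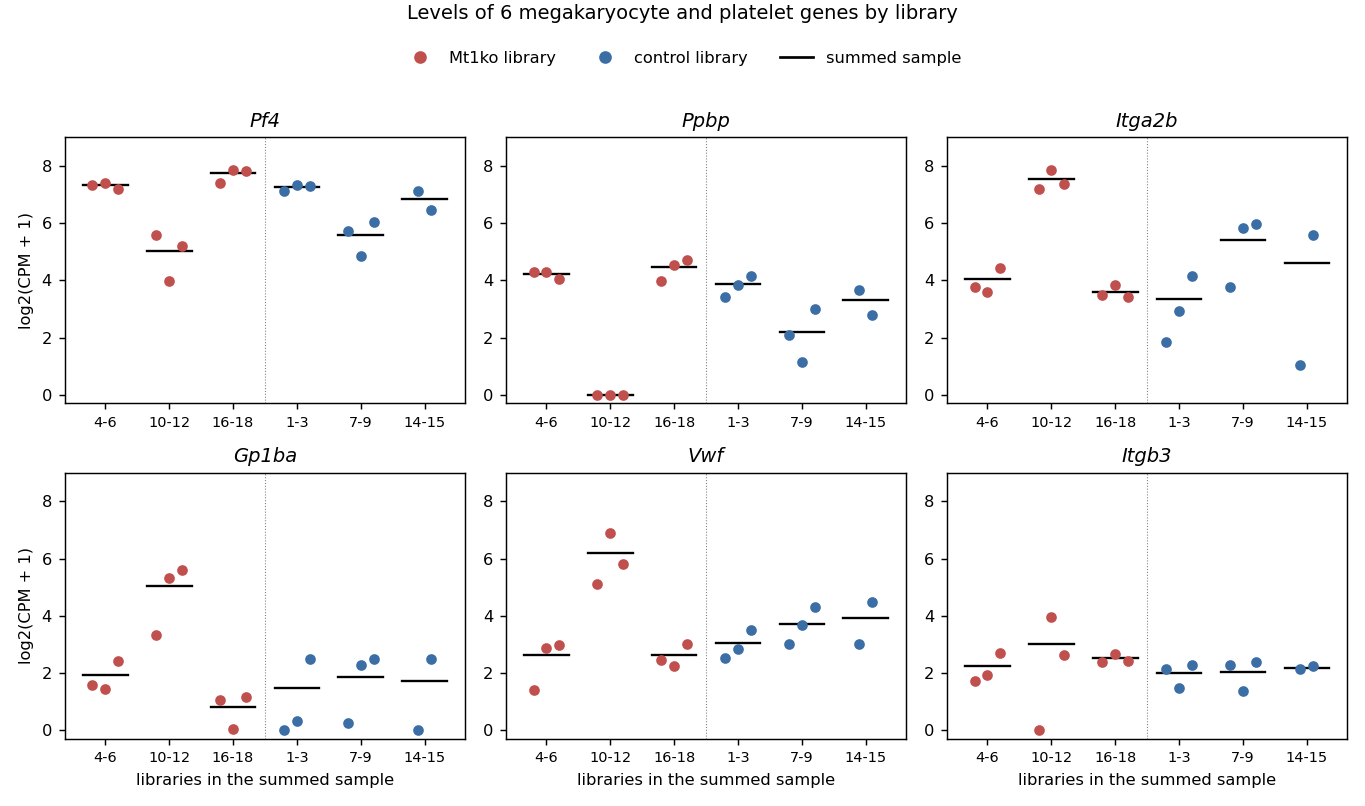
The level of the 6 members that passed the count filter, as log2(CPM + 1), in each library (points) and each summed sample (bars), with Mt1ko samples left and control samples right of the dotted line. Sample 10-12 is lowest for Pf4 and Ppbp and highest for Itga2b, Gp1ba, Vwf and Itgb3, and in most panels the libraries of the other 2 Mt1ko samples lie within or near the range of the control libraries.

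Itga2b and Itgb3 encode the alpha and beta chains of the platelet fibrinogen receptor, and both lie on chromosome 11, Itga2b at chr11:102453297-102470122 (minus strand) and Itgb3 at chr11:104608000-104670476 (plus strand). Itga2b was at 15.4, 184 and 11.2 CPM in the Mt1ko samples 4-6, 10-12 and 16-18, against 9.17, 41.1 and 23.5 CPM in the control samples 1-3, 7-9 and 14-15. Sample 10-12 alone stood above every control sample, and sample 16-18 lay below 2 of them. Libraries 10, 11 and 12 had 144, 233 and 164 CPM, each above the highest control library, number 9, at 61.9 CPM. Control libraries spread widely even within 1 summed sample, with 1.04 CPM in library 14 and 47.4 CPM in library 15. The mean of 70.1 ± 98.5 CPM in Mt1ko samples, against 24.6 ± 16.0 CPM in control samples (SD, n = 3 each), gave a log2 fold change of 1.51 with a standard error of 1.05 (95% interval -0.93 to 3.96, edgeR adjusted p = 1).

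Over the 6 summed samples Itgb3 varied least of the members tested. It was at 3.70, 6.99 and 4.69 CPM in the Mt1ko samples 4-6, 10-12 and 16-18, against 3.01, 3.14 and 3.55 CPM in the control samples 1-3, 7-9 and 14-15. It was the only member whose groups did not overlap; of all 16666 genes tested, 2.74% had every Mt1ko sample above every control sample and 4.36% had every one below. On CPM relative to all counts, without TMM scaling, the groups overlapped, with 3.71 CPM in Mt1ko sample 4-6 against 3.72 CPM in control sample 14-15. The log2 fold change was 0.67 with a standard error of 0.43 (95% interval -0.32 to 1.65, edgeR adjusted p = 1). Within sample 10-12 the 3 libraries had 0, 14.4 and 5.13 CPM, and leaving out library 11 moved the fold change to 0.17.

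The 2 chains were not at like levels. Divided by the length of their merged exons, Itga2b averaged 8.68 CPM per kilobase over the 6 samples and Itgb3 averaged 0.708. Itgav, which encodes the other alpha chain that pairs with ITGB3, averaged 11.9 CPM per kilobase, with 119 ± 31.4 CPM in Mt1ko samples and 138 ± 6.74 CPM in control samples (SD, n = 3 each). On the same per-length scale Pf4 averaged 165.9, Ppbp 10.0, Gp1ba 2.58, Vwf 1.20 and Gp6 0.00355. Without sample 10-12 the means per kilobase were 3.68 for Itga2b, 0.613 for Itgb3, 190.4 for Pf4, 12.0 for Ppbp, 0.752 for Gp1ba and 0.543 for Vwf, so that Vwf then stood below Itgb3. By the means over all 6 samples, Pf4 stood above 99.2% of the genes with a count on this scale and Itgb3 above 49.7%.

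Among the chains of the von Willebrand factor receptor, Gp1ba had the most counts. The gene, at chr11:70639122-70642036 (plus strand), encodes the chain that binds the factor. Gp1ba was at 2.79, 31.8 and 0.765 CPM in the Mt1ko samples 4-6, 10-12 and 16-18, against 1.76, 2.66 and 2.26 CPM in the control samples 1-3, 7-9 and 14-15. The highest and the lowest of the 6 samples were both Mt1ko. Single libraries ran from 0.0295 CPM (1 count, library 17) over a median of 2.00 to 47.7 CPM in the Mt1ko group, and from 0 over a median of 2.03 to 4.66 CPM in the control group. Gp1ba had the highest fold change of the 6, with a log2 value of 2.41, a standard error of 1.17 and a 95% interval of -0.32 to 5.13 (edgeR adjusted p = 1).

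Gp1bb and Gp9, whose products join GP1BA in the receptor, had 0 counts in every library, and 3 counts would have been 0.0281 to 0.0445 CPM in a summed sample. For Gp1bb this is uncertain, since 91.1% of its exon bases are shared with Septin5 on the same strand and 41.5% with Gm49601; Septin5 had 69 counts and Gm49601 had 30 counts over the 17 libraries. Gp5, the fourth chain, passed the filter at 0.197, 1.99 and 0.891 CPM in the Mt1ko samples 4-6, 10-12 and 16-18, against 0.0719, 0 and 0.504 CPM in the control samples 1-3, 7-9 and 14-15, with a log2 fold change of 2.42 and a standard error of 1.77 (edgeR adjusted p = 1). Gp6, the collagen receptor, was found only in control library 9, where its 13 counts gave 0.455 CPM; the sum 7-9 had 0.126 CPM, with an exact Poisson 95% interval of 0.0668 to 0.215 that covers counting error only. Fcer1g, the chain that carries GP6 to the surface and also serves Fc receptors, was abundant, at 197 ± 70.0 CPM in Mt1ko samples and 201 ± 72.3 CPM in control samples (SD, n = 3 each).

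Vwf, the ligand of this receptor, lies at chr6:125546774-125686679 (plus strand, 56 exons). It was at 5.18, 72.1 and 5.21 CPM in the Mt1ko samples 4-6, 10-12 and 16-18, against 7.25, 12.0 and 14.0 CPM in the control samples 1-3, 7-9 and 14-15. Sample 10-12 lay above all control samples and the other 2 Mt1ko samples lay below all of them. Libraries 10, 11 and 12 had 33.8, 117 and 55.8 CPM, and the highest control library, number 15, had 21.4 CPM. The log2 fold change was 1.31 with a standard error of 0.98 (95% interval -0.95 to 3.58, edgeR adjusted p = 1), and it moved to 0.72 without library 11.

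Across the list, 6 of the 9 members passed the filter on low counts and 0 were called at an adjusted p under 0.05. Of all 16666 genes tested, 0.00% were called by edgeR. In that test 171 genes (1.03%) had an unadjusted p under 0.05, 87 higher and 84 lower in Mt1ko samples. Limma-voom called 0 genes and DESeq2 called 1, Mt1 itself. All 6 fold changes of the members were above 0, with a median of 0.99 on the log2 scale, against a median of -0.01 and 48.3% above 0 over all genes tested. Mt1 had a log2 fold change of -1.85 with a standard error of 0.34 (edgeR adjusted p = 1).

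The direction of 3 members rested on sample 10-12. With it left out, Itga2b was at -0.88, Gp1ba at -0.33 and Vwf at -1.09 on the log2 scale, while Pf4 was at 0.84, Ppbp at 1.16 and Itgb3 at 0.38. The median of the 6 was then 0.03 against -0.002 over all genes, 3 of 6 were above 0, 2 of 6 had an unadjusted p under 0.05, as did 425 of the 17772 genes tested (2.39%), and none passed the adjustment. Without sample 16-18 instead, Pf4 turned to -0.12 and Ppbp was at 0.03. Relative to the control mean, the members' median shift was 0.27, 1.94 and -0.17 in the Mt1ko samples 4-6, 10-12 and 16-18, against -0.21, 0.06 and 0.20 in the control samples 1-3, 7-9 and 14-15. Library 6, with its Mt1 level near that of the controls, moved none of the 6 fold changes across 0 when it was left out of its sum, and the median was then 0.96.

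**Figure D2:**
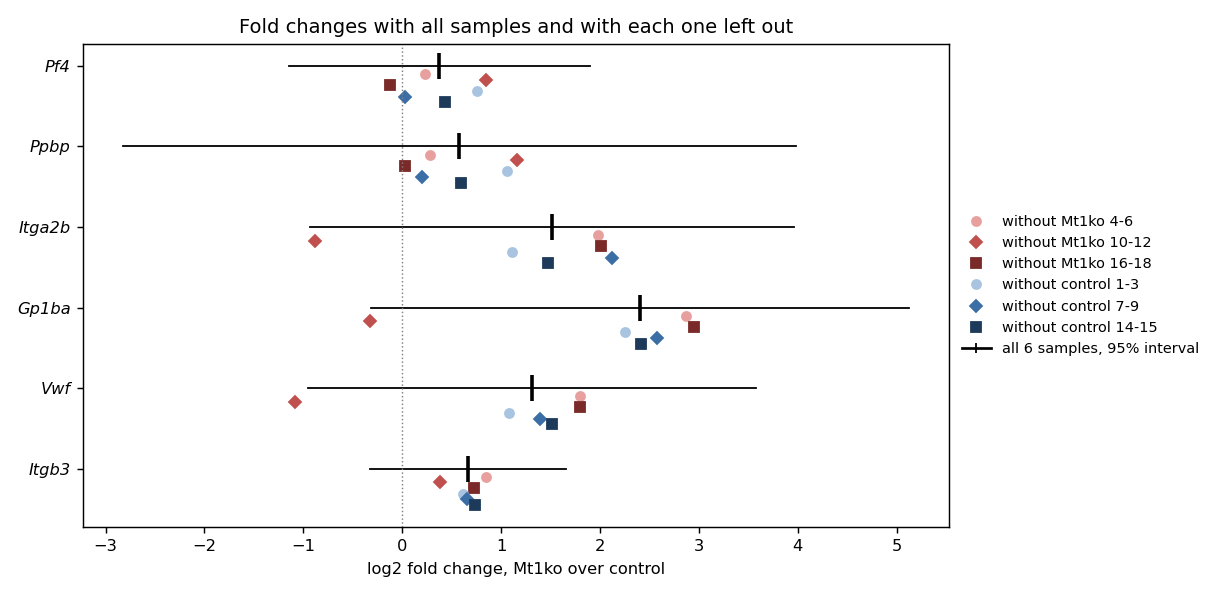
Log2 fold change of Mt1ko over control for the 6 members tested, with all 6 samples (black mark with its 95% interval) and with each summed sample left out in turn (red for Mt1ko samples, blue for control samples). Every interval holds 0, and leaving out Mt1ko sample 10-12 places Itga2b, Gp1ba and Vwf below 0.

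The second of the index sequences that the labels give for each library was also divided unevenly between the groups. The first of these sequences was on 3 Mt1ko and 5 control libraries, and the second on 4 Mt1ko libraries (10 to 12 and 16) and 3 control libraries. Pf4 averaged 158 CPM in Mt1ko against 107 CPM in control libraries with the first sequence, and 67.0 CPM in Mt1ko against 96.5 CPM in control libraries with the second. Ppbp averaged 17.6 CPM in Mt1ko against 8.90 CPM in control libraries with the first, and 3.66 CPM in Mt1ko against 8.23 CPM in control libraries with the second. The chemokine means were thus higher in Mt1ko libraries of the first set and lower in those of the second. In the second set, Mt1ko library 16 had 170 CPM of Pf4 and 14.6 CPM of Ppbp. The highest control library there had 138 CPM of Pf4 and 11.7 CPM of Ppbp, so the lower means came from libraries 10 to 12. Itga2b averaged 14.8 CPM in Mt1ko against 18.9 CPM in control libraries with the first, and 137.9 CPM in Mt1ko against 36.8 CPM in control libraries with the second. Vwf averaged 4.97 CPM in Mt1ko against 8.00 CPM in control libraries with the first, and 52.9 CPM in Mt1ko against 15.8 CPM in control libraries with the second. The means of Itga2b and Vwf were lower in Mt1ko libraries of the first set and higher in those of the second. Library 16 of the second set had 10.3 CPM of Itga2b and 4.53 CPM of Vwf, both under the control means. Gp1ba averaged 2.66 CPM in Mt1ko against 1.77 CPM in control libraries with the first, and 24.1 CPM in Mt1ko against 3.08 CPM in control libraries with the second. Itgb3 averaged 3.54 CPM in Mt1ko against 2.89 CPM in control libraries with the first, and 5.92 CPM in Mt1ko against 3.76 CPM in control libraries with the second. The means of Gp1ba and Itgb3 kept 1 direction in both sets, but single Mt1ko libraries of the second set did not all follow. Gp1ba was at 1.06 CPM in library 16, under the control mean. Itgb3 ran from 0 CPM in library 10 to 14.4 CPM in library 11. The third sequence was found only on Mt1ko libraries 17 and 18.

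Of the 6 members with a mean of at least 1 CPM, all but Itgb3 fell into patterns that ran against each other over the 17 libraries. Pf4 and Ppbp varied together, with a Pearson correlation of log2(CPM + 1) of 0.94 over 17 libraries and 0.97 over the 14 libraries other than 10 to 12. Itga2b and Gp1ba varied together, at 0.90 over 17 libraries and 0.81 over those 14. Vwf followed Itga2b at 0.83 over 17 libraries and 0.57 over 14. Pf4 ran against Itga2b, at -0.78 over 17 libraries and -0.55 over 14. Gp1ba ran against Pf4 at -0.71 over 17 libraries but -0.33 over 14, and against Ppbp at -0.73 but -0.19. Itgb3 followed none of the others closely (Pearson -0.10 to 0.22 over 17 libraries). The libraries share a summed sample in sets of 2 or 3 and are labelled technical replicates, so these values are descriptions over points that are not independent.

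The count ratio of Pf4 to Itga2b shows the size of this. It was 0.0628 at the lowest, 12.5 at the median and 23.3 at the highest in the 9 Mt1ko libraries, against 0.502, 6.71 and 132.5 in the 8 control libraries. The ratio of Pf4 to Ppbp was between 8.61 and 11.6 in the 6 Mt1ko libraries with Ppbp and between 9.18 and 22.8 in the 8 control libraries. Mt1ko libraries 10, 11 and 12 lay far outside that range: they had 1199, 443 and 861 Pf4 counts and 0 Ppbp counts, so that against 3 Ppbp counts per library the ratio was at least 400, 148 and 287. Libraries 14 and 15, summed as 1 control sample, differed in the first ratio from 132.5 to 1.83 and in the second from 11.8 to 14.6.

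**Figure D3:**
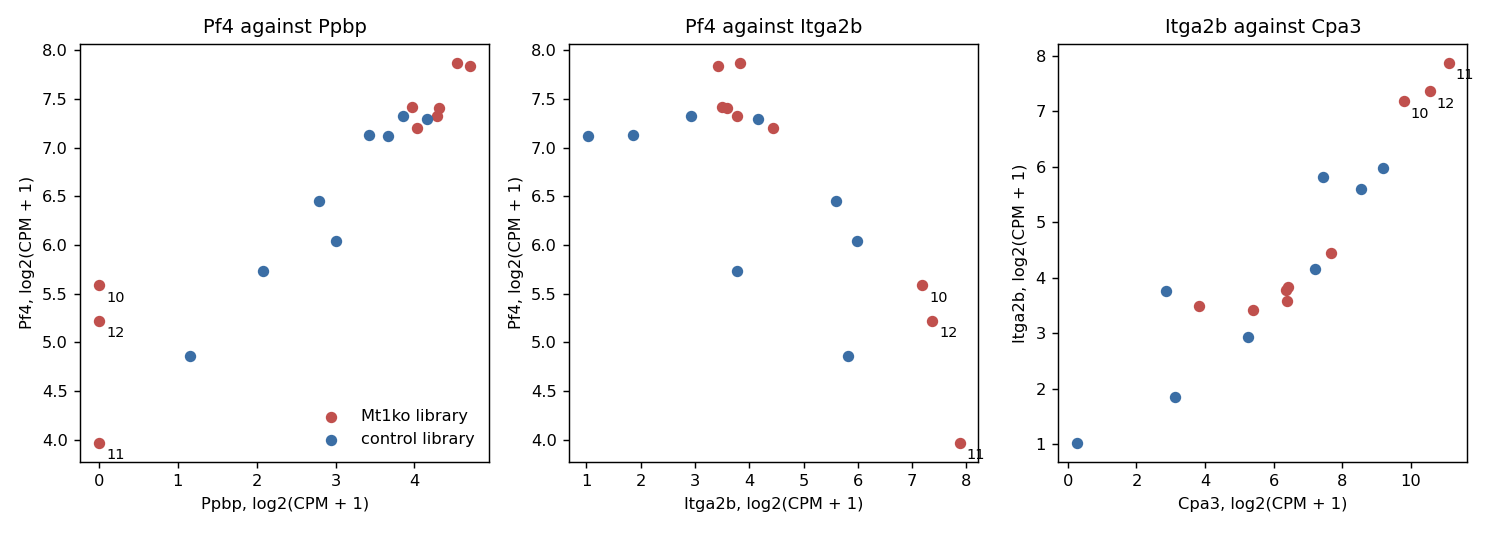
Levels of gene pairs in 17 libraries (points, Mt1ko red, control blue), both axes as log2(CPM + 1): Pf4 against Ppbp, Pf4 against Itga2b, and Itga2b against the mast cell protease gene Cpa3. Pf4 and Ppbp rise together (Pearson 0.94, and 0.97 without libraries 10 to 12, which have no Ppbp counts). Pf4 is lower where Itga2b is higher (-0.78), and Itga2b is higher where Cpa3 is higher (0.93). Libraries 10 to 12 lie at the end of each plot.

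Among 10907 genes outside the list with at least 1 CPM on average, the genes whose log2 levels were most like each member were named. They are the 3 highest of that search for each member, over points that are not independent, and none was tested. Those most like Pf4 were Mmp13 (Pearson 0.96 over 17 libraries), Filip1l (0.95) and Scarb1 (0.94), which stood at 0.93, 0.92 and 0.90 without libraries 10 to 12. Those most like Ppbp were Antxr2 (0.96), Tspan32 (0.96) and Filip1l (0.95), which fell to 0.87, 0.89 and 0.91. Those most like Itga2b were Avil (0.96), Gata2 (0.95) and Ptprg (0.95), which stood at 0.93, 0.91 and 0.89 over the 14 libraries other than 10 to 12. Those most like Gp1ba were Alox5, Tnik and Ccnd2 (each 0.93), which fell to 0.79, 0.83 and 0.85 over those 14 libraries. Those most like Vwf were Sema3e (0.94), Csf2rb2 (0.93) and Rab37 (0.92), which fell to 0.82, 0.73 and 0.77. Those most like Itgb3 were Macrod1 (0.95), Pcca (0.89) and Ppfibp1 (0.87), which fell to 0.76, 0.47 and 0.71 over the 14 libraries.

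Of the transcription factors that drive megakaryocyte development, 13 of 14 were tested, 0 were called, 10 were above 0 and 3 below, and the median log2 fold change was 0.26. Without sample 10-12 it was 0.04, with 8 above 0 and 5 below. None of the most abundant passed the test. Runx1 averaged 191 ± 66.4 CPM in Mt1ko and 166 ± 11.7 CPM in control samples. Mafg (the small Maf partner of NF-E2) averaged 139.66 ± 16.5 CPM in Mt1ko and 139.5 ± 2.24 CPM in control samples. Etv6 (an ETS repressor) averaged 95.04 ± 14.3 CPM in Mt1ko and 96.8 ± 10.8 CPM in control samples. Fli1 (an ETS activator of platelet genes) averaged 85.5 ± 10.4 CPM in Mt1ko and 89.1 ± 15.6 CPM in control samples (SD, n = 3 each). Runx1 was highest in sample 10-12, at 145, 267 and 160 CPM in the Mt1ko samples 4-6, 10-12 and 16-18, against 156, 179 and 164 CPM in the control samples 1-3, 7-9 and 14-15. Gata2, Tal1 and Gata1, the last 2 singled out after their values were seen, were also highest in that sample. Other factors went the other way: Mafg and Etv6 were lowest there, at 121 CPM of Mafg and 79.1 CPM of Etv6. The next lowest were control samples, 14-15 with 138 CPM of Mafg and 7-9 with 85.1 CPM of Etv6. Gata2 was at 10.8, 128.5 and 5.04 CPM in the Mt1ko samples 4-6, 10-12 and 16-18, against 5.95, 23.6 and 17.1 CPM in the control samples 1-3, 7-9 and 14-15. Tal1 was at 2.89, 36.8 and 1.38 CPM in those Mt1ko samples, against 1.13, 5.02 and 2.09 CPM in those control samples, and Gata1 at 0.4596, 6.61 and 0.115 CPM in those Mt1ko samples, against 0.277, 1.73 and 0.401 CPM in those control samples.

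Thpo, which encodes thrombopoietin and is used mainly in liver, had 0 counts in all 17 libraries. Genes of thrombopoietin signalling inside the cell, which other cytokines also use, were present. Of the 7 tested, 3 were above 0 and 4 below, with a median of -0.02 and 0 called. Socs3 (a feedback inhibitor) averaged 287 ± 144 CPM in Mt1ko and 294 ± 149 CPM in control samples. Stat3 (a transcription factor) averaged 204 ± 29.2 CPM in Mt1ko and 223 ± 17.9 CPM in control samples. Jak2 (a kinase of cytokine signalling) averaged 135 ± 43.1 CPM in Mt1ko and 138 ± 54.2 CPM in control samples. Sh2b3 (an adaptor that restrains JAK2) averaged 74.0 ± 29.4 CPM in Mt1ko and 83.2 ± 17.2 CPM in control samples (SD, n = 3 each).

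Other platelet surface receptors were a mixture. Of 23, 16 were tested, 8 were above 0 and 8 below, the median was 0.01 and 0 were called. Clec1b, the podoplanin receptor, P2ry12, the ADP receptor, Mpig6b, Cd226 and Jam3 had 0 counts in all 17 libraries. The abundant ones are also used by other blood cells. Itgb1 (the beta chain of collagen and laminin receptors) averaged 590.2 ± 38.4 CPM in Mt1ko and 560.2 ± 18.3 CPM in control samples. Selp (P-selectin) averaged 371 ± 108 CPM in Mt1ko and 378 ± 84.8 CPM in control samples. Itga6 (a laminin receptor chain) averaged 155 ± 48.1 CPM in Mt1ko and 178 ± 14.9 CPM in control samples (SD, n = 3 each).

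Of 20 genes for alpha granule and secreted platelet proteins, 13 were tested, 7 were above 0 and 6 below, the median was 0.01 and 0 were called. Thbs1 (thrombospondin 1) averaged 2176 ± 1320 CPM in Mt1ko and 1960.4 ± 672 CPM in control samples. F13a1 (the A chain of factor XIII) averaged 1888 ± 715 CPM in Mt1ko and 2008 ± 654 CPM in control samples. Srgn (the granule proteoglycan serglycin) averaged 632 ± 158 CPM in Mt1ko and 585 ± 228 CPM in control samples. Nbeal2 (needed for alpha granules) averaged 306 ± 68.8 CPM in Mt1ko and 279 ± 64.3 CPM in control samples (SD, n = 3 each). Mmrn1, Pdgfb and the fibrinogen genes Fga, Fgb and Fgg had 0 counts in all libraries.

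Of 14 cytoskeletal and proplatelet genes, 12 were tested, 7 were above 0 and 5 below, the median was 0.01 and 0 were called. Myh9 (non-muscle myosin) averaged 4396 ± 177 CPM in Mt1ko and 4337 ± 93.8 CPM in control samples. Flna (filamin A) averaged 2121 ± 375 CPM in Mt1ko and 2262 ± 119 CPM in control samples. Tln1 (talin) averaged 1576 ± 190.0 CPM in Mt1ko and 1492 ± 131 CPM in control samples. Diaph1 (a formin) averaged 604 ± 70.0 CPM in Mt1ko and 598 ± 23.4 CPM in control samples (SD, n = 3 each). Tubb1, the beta-tubulin of the platelet lineage, did not pass the filter, with 0.0281 ± 0.0487 CPM in Mt1ko and 0.121 ± 0.151 CPM in control samples, and Myl9 had 0 counts. Of 20 signalling genes below the receptors, 19 were tested, 12 were above 0 and 7 below, the median was 0.10 and 0 were called. Plek (pleckstrin) averaged 425 ± 74.0 CPM in Mt1ko and 398 ± 62.3 CPM in control samples. Lyn (a Src family kinase) averaged 387 ± 78.2 CPM in Mt1ko and 405 ± 53.7 CPM in control samples. Syk (the kinase below GP6 and CLEC-2) averaged 346 ± 6.45 CPM in Mt1ko and 368 ± 42.4 CPM in control samples. Rap1b (a small GTPase that switches on the fibrinogen receptor) averaged 321 ± 39.9 CPM in Mt1ko and 329 ± 9.15 CPM in control samples (SD, n = 3 each).

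**Figure D4:**
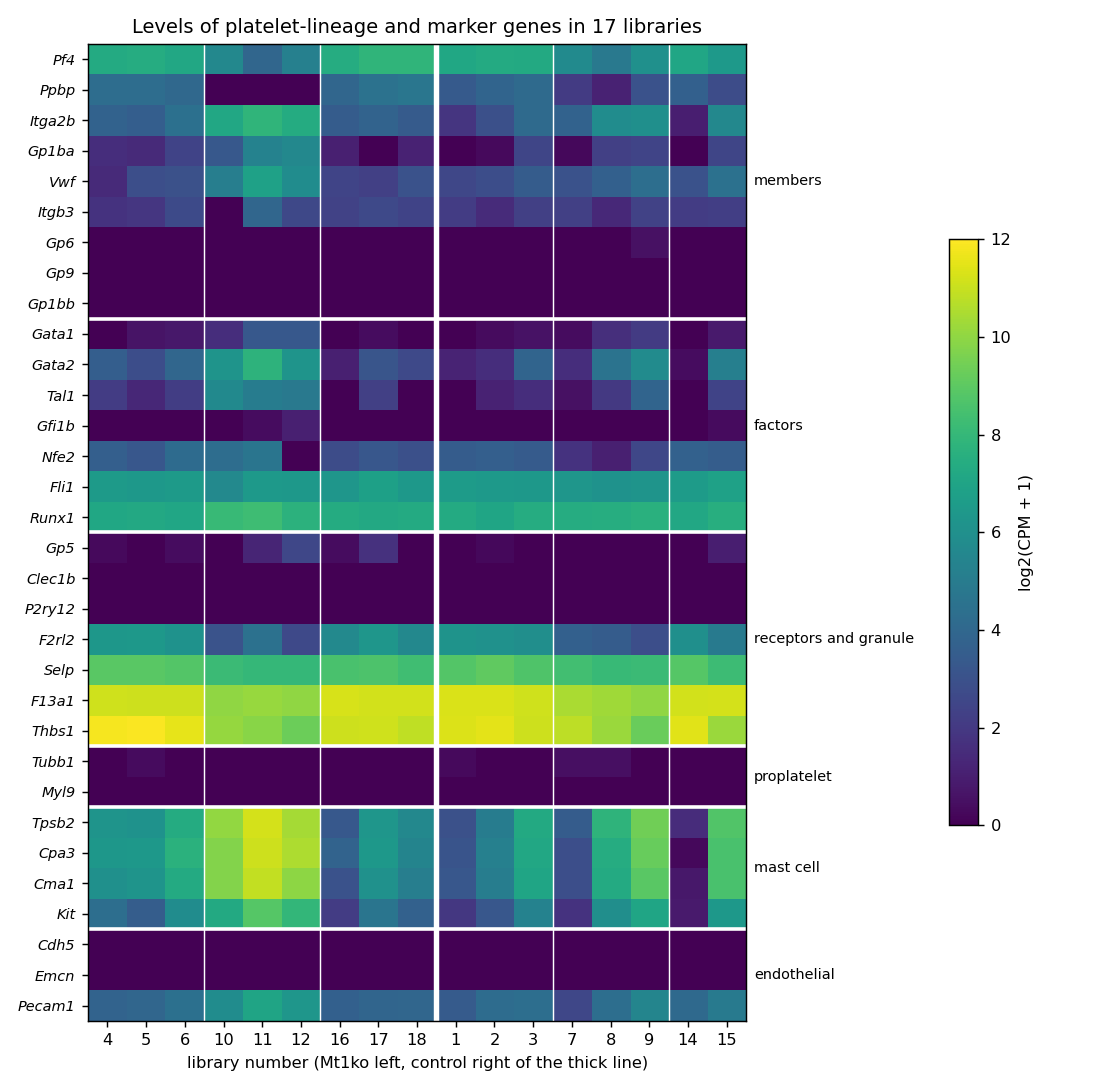
Levels, as log2(CPM + 1) by colour, of the 9 members and of genes from the other lists (rows) in 17 libraries (columns, Mt1ko left and control right of the thick line, thin lines between summed samples). Gp9, Gp1bb, Clec1b, P2ry12, Myl9 and the endothelial genes Cdh5 and Emcn are at 0 in every library, and Itga2b, Gp1ba, Vwf, Gata2 and the mast cell genes are brightest in libraries 10 to 12.

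Markers of other marrow cells moved with some members. Of 16 mast cell and basophil markers, 12 were tested, 11 were above 0 and 1 below, with a median log2 fold change of 1.58, and without sample 10-12 the median was -0.89 with 1 above 0 and 11 below; 0 were called. Their summed level was 515, 5919 and 203 CPM in the Mt1ko samples 4-6, 10-12 and 16-18, against 296, 978 and 788.9 CPM in the control samples 1-3, 7-9 and 14-15. Cpa3, a mast cell protease, was at 881.6, 2195 and 1492 CPM in libraries 10, 11 and 12. In control libraries it ran from 0.203 CPM in library 14, over 371.5 CPM in library 15, to 588 CPM in library 9, the highest. Its log2 level correlated with that of Itga2b at 0.93 over 17 libraries and 0.88 over the 14 other than 10 to 12, with Gp1ba at 0.87 and 0.82, with Vwf at 0.72 and 0.44, and with Pf4 at -0.56 and -0.19. Tpsb2 (a tryptase) averaged 602 ± 909 CPM in Mt1ko and 181 ± 101 CPM in control samples. Cma1 (a chymase) averaged 479 ± 707 CPM in Mt1ko and 146 ± 73.0 CPM in control samples. Kit (the stem cell factor receptor) averaged 114 ± 159 CPM in Mt1ko and 39.1 ± 20.4 CPM in control samples (SD, n = 3 each), while Mcpt1, Prss34 and Mrgprb2 were at 0. The part of these markers in the levels of Itga2b, Gp1ba and Vwf was not tested.

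Of 15 endothelial markers, which bear on Vwf, 7 had 0 counts in all 17 libraries: Cdh5, Tek, Tie1, Emcn, Cldn5, Robo4 and Sox17. Only 3 were tested, and the summed level of the list was 17.7, 98.7 and 14.2 CPM in the Mt1ko samples 4-6, 10-12 and 16-18, against 16.9, 23.5 and 23.2 CPM in the control samples 1-3, 7-9 and 14-15. Nearly all of it was Pecam1, which leukocytes and platelets also carry, at 39.7 ± 42.6 CPM in Mt1ko and 19.6 ± 3.38 CPM in control samples, while Erg was at 3.55 ± 5.38 CPM in Mt1ko and 1.03 ± 1.498 CPM in control samples and Egfl7 at 0.0789 ± 0.119 CPM in Mt1ko and 0.170 ± 0.204 CPM in control samples (SD, n = 3 each).

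Monocyte and macrophage markers were abundant, and the summed level of 17 such genes was 9013 to 9808 CPM in Mt1ko samples and 7980 to 11194 CPM in control samples. Of these genes 15 were tested, 12 were above 0 and 3 below, with a median of 0.10 and 0 called. Lyz2 (lysozyme) averaged 3560 ± 890 CPM in Mt1ko and 3477 ± 1880 CPM in control samples. Itgam (CD11b) averaged 3004 ± 690.1 CPM in Mt1ko and 2981 ± 177 CPM in control samples. Mpeg1 (perforin-2) averaged 511 ± 97.8 CPM in Mt1ko and 465 ± 126 CPM in control samples (SD, n = 3 each). Over the libraries Pf4 correlated (Pearson) with the macrophage receptor gene Mrc1 at 0.90 (0.94 without libraries 10 to 12). With F13a1 it correlated at 0.86 (0.81), and it ran against Lyz2 at -0.74 (-0.76). Correlations of ranks (Spearman) over 17 libraries were weaker, at 0.625 with Mrc1, 0.65 with F13a1 and -0.53 with Lyz2. Mrc1 was at 16.2 to 23.7 CPM in libraries 10 to 12, against 4.30 to 19.1 CPM in control libraries 7 to 9, the other libraries with low Pf4. The part of these cells in the level of Pf4 was not tested.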

How the data were processed

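Total RNA from bone marrow was extracted with an RNeasy Micro kit and DNase, and libraries were made with a stranded SMARTer total RNA kit for small inputs (v2-Pico), per the labels' protocols. The tools Trimmomatic 0.35 and RSEM 1.3.3 and the build GRCm38 (mm10) are named in the submitters' processing notes. No aligner, strand setting or rounding of RSEM's estimates is stated there. Unnormalized gene counts, all whole numbers, were deposited by the authors for 17 libraries and for 6 sums of them, and each sum equalled its libraries in every gene. A library numbered 13 was not analysed here.

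Groups came from the sample titles. In R 4.3.3, edgeR 4.0.16 compared the 3 Mt1ko with the 3 control sums by its quasi-likelihood test, after its default filter on low counts and TMM scaling. A gene was called when its p, adjusted by the Benjamini-Hochberg method over 16666 genes, was under 0.05. Each standard error was taken as the size of the log2 fold change over the square root of its F statistic. CPM values are TMM-scaled, for libraries over the 17 libraries and for sums over the 6 sums; TMM scaling of CPM was chosen after the data were seen. Levels per kilobase use GENCODE vM21 exons. Correlations used log2(CPM + 1). Intervals and limits of 3 counts cover counting error only, since amplified copies of a molecule are counted like separate ones.

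The members and all lists were chosen with earlier results of these data known. Named were all members, every called gene and the 4 most abundant genes of each pathway list, the 3 most abundant of each marker list with Cpa3 and Kit, the 3 genes most like each member (at least 1 CPM, no predicted loci) and Mt1. Itgav, Septin5, Gm49601, Gp5, Gata1, Tal1, Mrc1, Tubb1 and the listed genes at 0 were named after their values were seen. Of the listed symbols, 1 had no row. Alternatives were other scalings, filters and thresholds, single libraries, DESeq2 1.42.0, limma-voom (limma 3.58.1), each sum left out, and libraries 6 or 11 left out. Promoter windows are RefSeq's. A gene of the signalling list is not reported here.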

Additional observations from a re-analysis of the deposited data

Results flagged for a closer look

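Values of single libraries were examined in 15 groups, for the 7 members with a count and Mt1. Of these values, 4 lay far from the rest of their group. For independent values with a normal spread, chance alone would set apart about 1 group in 20. Libraries that share a summed sample are not independent points, so that share is no yardstick for these 4. Itgb3 was at 14.4 CPM in Mt1ko library 11, while the next of the 9 Mt1ko libraries had 5.53 CPM. Vwf was at 117 CPM in the same library, while the next, Mt1ko library 12, had 55.8 CPM. Gp6 was at 0.455 CPM in control library 9 and had 0 counts in the 7 other control libraries, so any count there would have been set apart. Mt1 itself was at 316.7 CPM in Mt1ko library 6, while the next of the 9 Mt1ko libraries had 95.7 CPM.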

How the results depend on the processing

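Under 20 alternatives (19 planned, 1 added after the data were seen), 0 members were called. Entering the 17 libraries singly, with or without the summed sample as a random effect, DESeq2, leaving out library 6, and leaving out library 6 with sample 10-12 each called 1 gene, Mt1. The members' median log2 fold change ran from 0.029 to 1.325 with each sum left out; it was 0.65 without library 11, 0.48 with the second index as covariate, 0.34 with limma-voom, 0.10 with the random effect and -0.29 without library 6 and sample 10-12. Directions turned for Ppbp with the second index as covariate (-0.016), the random effect (-1.47) and limma-voom (-1.87), for Itgb3 (-0.11) and Vwf (-0.03) with the random effect, and for Itga2b (-1.08), Gp1ba (-0.76) and Vwf (-1.24) without library 6 and sample 10-12. With each sum left out, Pf4 ran from -0.12 to 0.84, Itga2b from -0.88 to 2.12, Gp1ba from -0.33 to 2.96 and Vwf from -1.09 to 1.80. The cause was not tested. Gp6 could be tested only with no filter, and DESeq2 gave no adjusted p for Vwf. With 3 samples a group and a common biological coefficient of variation of 0.67, the intervals of all 6 members hold both directions. No paired analysis was possible because the Mt1ko and control libraries share no replicate numbers.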

Other observations

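Erythroid markers, whose genes share GATA1 with the megakaryocyte lineage, were low, with summed levels of 8.94 to 20.9 CPM in Mt1ko samples and 3.00 to 49.0 CPM in control samples; Epor was at 0 in all 17 libraries. Of 9 tested, 3 were above 0 and 6 below, with a median of -0.16. It was -0.39 without Mt1ko sample 10-12, and 0.56 without control sample 7-9, with 9 above 0 and 0 below. Hba-a2 (alpha globin) averaged 6.23 ± 3.77 CPM in Mt1ko and 6.95 ± 5.26 CPM in control samples. Hbb-bs averaged 3.17 ± 1.68 CPM in Mt1ko and 5.77 ± 6.40 CPM in control samples. Hba-a1 averaged 1.43 ± 1.25 CPM in Mt1ko and 4.00 ± 5.12 CPM in control samples (SD, n = 3 each).

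Stem and progenitor markers had summed levels of 244, 580 and 222 CPM in the Mt1ko samples 4-6, 10-12 and 16-18, against 214, 209.6 and 239 CPM in the control samples 1-3, 7-9 and 14-15. Of 15 tested, 9 were above 0 and 6 below, with a median of 0.11. Without sample 10-12 the median was -0.075, with 7 above 0 and 8 below. Hoxa9 (a homeobox factor of myeloid progenitors) averaged 77.6 ± 14.4 CPM in Mt1ko and 60.4 ± 9.07 CPM in control samples. Ly6a averaged 37.2 ± 18.9 CPM in Mt1ko and 29.0 ± 10.1 CPM in control samples (SD, n = 3 each). Kit, which is also on the mast cell list, made up 297 of the 580 CPM in sample 10-12. In the other samples Kit was at 13.9 to 58.5 CPM.

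Of 10 neutrophil markers tested, 4 were above 0 and 6 below, with a median of -0.44. Without sample 10-12 the median was 0.10, with 8 above 0 and 2 below. Mmp8 (neutrophil collagenase) averaged 194 ± 20.8 CPM in Mt1ko and 189.7 ± 26.1 CPM in control samples. Csf3r (the G-CSF receptor) averaged 45.5 ± 18.5 CPM in Mt1ko and 45.3 ± 20.4 CPM in control samples. Elane (neutrophil elastase) averaged 31.6 ± 32.8 CPM in Mt1ko and 47.1 ± 37.2 CPM in control samples (SD, n = 3 each). None of these genes was called by edgeR.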
